A study of Rattus norvegicus with 24 samples.

Results

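Mitochondrial biogenesis regulators are the nuclear-encoded proteins that set how much mitochondrial and respiratory machinery a cell makes, and here they are 8 listed genes: Ppargc1a, Ppargc1b, Esrra, Tfam, Nrf1, Gabpa, Tfb1m and Tfb2m. A gene was measured where a probe set of the array was paired with its symbol alone, and the probe set with the highest mean log2 value was to be kept. On that rule 7 of the 8 genes were measured, each by 1 probe set, out of 17245 genes in all. Gabpa lay only on a probe set shared with Atp5pf, so its level is not given.

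Liver RNA of 24 male Wistar rats was hybridised to 1 array per animal. Diet (5% or 20% protein) and time on it (1 or 4 weeks) were crossed, with 6 animals in each of the 4 groups, named 5% protein 1wk, 20% protein 1wk, 5% protein 4wks and 20% protein 4wks. The study set low protein feeding, a model of malnutrition, against a normal protein diet. All groups share sex, strain and tissue, and no genotype, drug or age enters the group labels. A code in the labels holds 4 and 18 where the titles hold 5 and 20, and the design text gives only the 4 week period, so the exact percentages and the shorter time rest on the sample titles. Each array carries its own animal number, so the spread within a group is between animals.

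The coactivators PGC-1α (from Ppargc1a) and PGC-1β (from Ppargc1b) bind no DNA themselves and act through nuclear receptors such as ERRα (from Esrra) and through NRF-1 and GABP, which switch on nuclear genes of the respiratory chain. One group of targets, TFAM, TFB1M and TFB2M, is carried into mitochondria, where TFAM packages mitochondrial DNA and TFAM with TFB2M starts its transcription. In liver PGC-1α is also known as a fasting-induced coactivator of gluconeogenesis and fatty acid oxidation.

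The proximal promoters of the 4 regulators that differed between the diets at 4 weeks are shown because they carry different sites known from this network. Each is the 200 bases before the annotated start in RefSeq's rat assembly GRCr8, written 5′ to 3′ on the gene's strand, and capitals mark matches on either strand to 5 motifs, searched over 250 bases before the start. The motifs were the cAMP response element TGACGTCA, the NRF-1 motif GCATGCGC, the GABP (ETS) site CCGGAAG, the ERR motif AAGGTCA and the Sp1 site or GC box GGGCGG. All 8 listed genes had a promoter entry.
Ppargc1a: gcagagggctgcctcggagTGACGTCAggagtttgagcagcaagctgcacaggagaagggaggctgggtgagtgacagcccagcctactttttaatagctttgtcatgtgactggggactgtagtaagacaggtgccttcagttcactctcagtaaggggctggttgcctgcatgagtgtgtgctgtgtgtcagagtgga
Esrra: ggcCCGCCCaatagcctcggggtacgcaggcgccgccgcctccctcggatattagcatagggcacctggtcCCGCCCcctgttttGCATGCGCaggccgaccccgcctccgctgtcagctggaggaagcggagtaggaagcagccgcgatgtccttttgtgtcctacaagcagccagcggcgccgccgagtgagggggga
Tfam: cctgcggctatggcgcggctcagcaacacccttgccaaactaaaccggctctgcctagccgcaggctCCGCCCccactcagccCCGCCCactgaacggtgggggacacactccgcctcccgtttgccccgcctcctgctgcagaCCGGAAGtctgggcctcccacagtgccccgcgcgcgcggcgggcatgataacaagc
Nrf1: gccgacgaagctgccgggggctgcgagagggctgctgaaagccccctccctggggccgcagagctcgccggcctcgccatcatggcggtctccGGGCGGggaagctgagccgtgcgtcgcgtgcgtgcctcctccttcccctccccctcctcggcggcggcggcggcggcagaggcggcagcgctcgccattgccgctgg

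The Ppargc1a window (chr14:63634108-63634307, plus strand) held the full cAMP response element at bases -181 to -174 from the start and no other searched motif. The Esrra window (chr1:213543306-213543505, minus strand) held an NRF-1 motif at -115 to -108 and GC boxes beginning at -197 and -129. The Tfam window (chr20:17355173-17355372, plus strand) held a GABP site at -56 to -50 and GC boxes beginning at -133 and -117. The Nrf1 window (chr4:59632226-59632425, plus strand) held only a GC box at -107 to -102. Of the others, Tfb2m held an NRF-1 motif at -45 and 4 GC boxes, Ppargc1b held 5 GC boxes, 2 of which overlap, and Gabpa held a GABP site at -85, while Tfb1m held none of the 5 motifs and no window held the ERR motif. Over the 250 bases before the start of 33469 RefSeq promoters, the cAMP response element occurred in 1.59%, the NRF-1 motif in 2.2%, the GABP site in 7.27%, the ERR motif in 3.99% and the GC box in 30.47%. A match is a run of letters and not evidence of binding.

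The values are deposited intensities, summarised per probe set and unlogged, and the comparisons are differences of log2 intensity fitted with limma across all 17245 genes, with p-values adjusted by Benjamini and Hochberg's method and called below 0.05. Array medians lay between 42.4 and 45.5. The liver label was checked with 8 measured hepatocyte genes. Their mean log2 levels lay between 11.55 and 13.72, at or above the 98.2nd percentile of all genes. The 6 measured striated muscle markers had means from 3.79 (Myh7) to 5.48 (Acta1). Of the 6 adipocyte markers, Ucp1 (3.76), Lep (4.37), Adipoq (4.50) and Plin1 (4.79) were dim, but Cidea (7.97) and Cidec (9.96) were not. Animal numbers fell into 4 runs, 22 to 32, 49 to 54, 59 to 73 and 74 to 79, and the labels do not say what a run stands for. The second and the fourth run held the 1 week animals, 3 per diet in each. The first run held 5 animals on 5% and 2 on 20% protein at 4 weeks, and the third held 1 on 5% and 4 on 20%. Diet values of the regulators within runs are therefore given beside the pooled ones. Since 1 rat has no spread of its own, the errors of the third run assume that rat 59, its only rat on 5% protein, varies like rats of the other groups. No run held both times, so run and time cannot be told apart in any comparison between 1 and 4 weeks. At 1 week no row of the sample plate named in the titles held both diets, so plate row and diet cannot be told apart there, whereas rows B and E held both at 4 weeks.

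After 4 weeks 4 of the 7 measured regulators were higher on 5% than on 20% protein: Ppargc1a, Nrf1, Tfam and Esrra. None was called lower. The differences were 2.94-fold for Ppargc1a and between 1.25-fold and 1.39-fold for the other 3. Across all genes 13.4% were called higher and 12.4% lower in this comparison, so a call at 4 weeks was common. The median difference was 0.35 on the log2 scale over the 7 regulators, all of which were positive, against -0.01 over all genes. After 1 week none of the 7 passed the adjusted threshold. An unadjusted p below 0.05 in the limma fit was reached by 4 of the 7 and by 3052 of all 17245 genes. In that comparison 1.86% of all genes were called higher, and the median was 0.18 over the regulators against -0.01 over all genes. These are RNA levels of whole liver, where fewer cells of a type and less RNA per cell cannot be told apart.

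**Figure D1:**
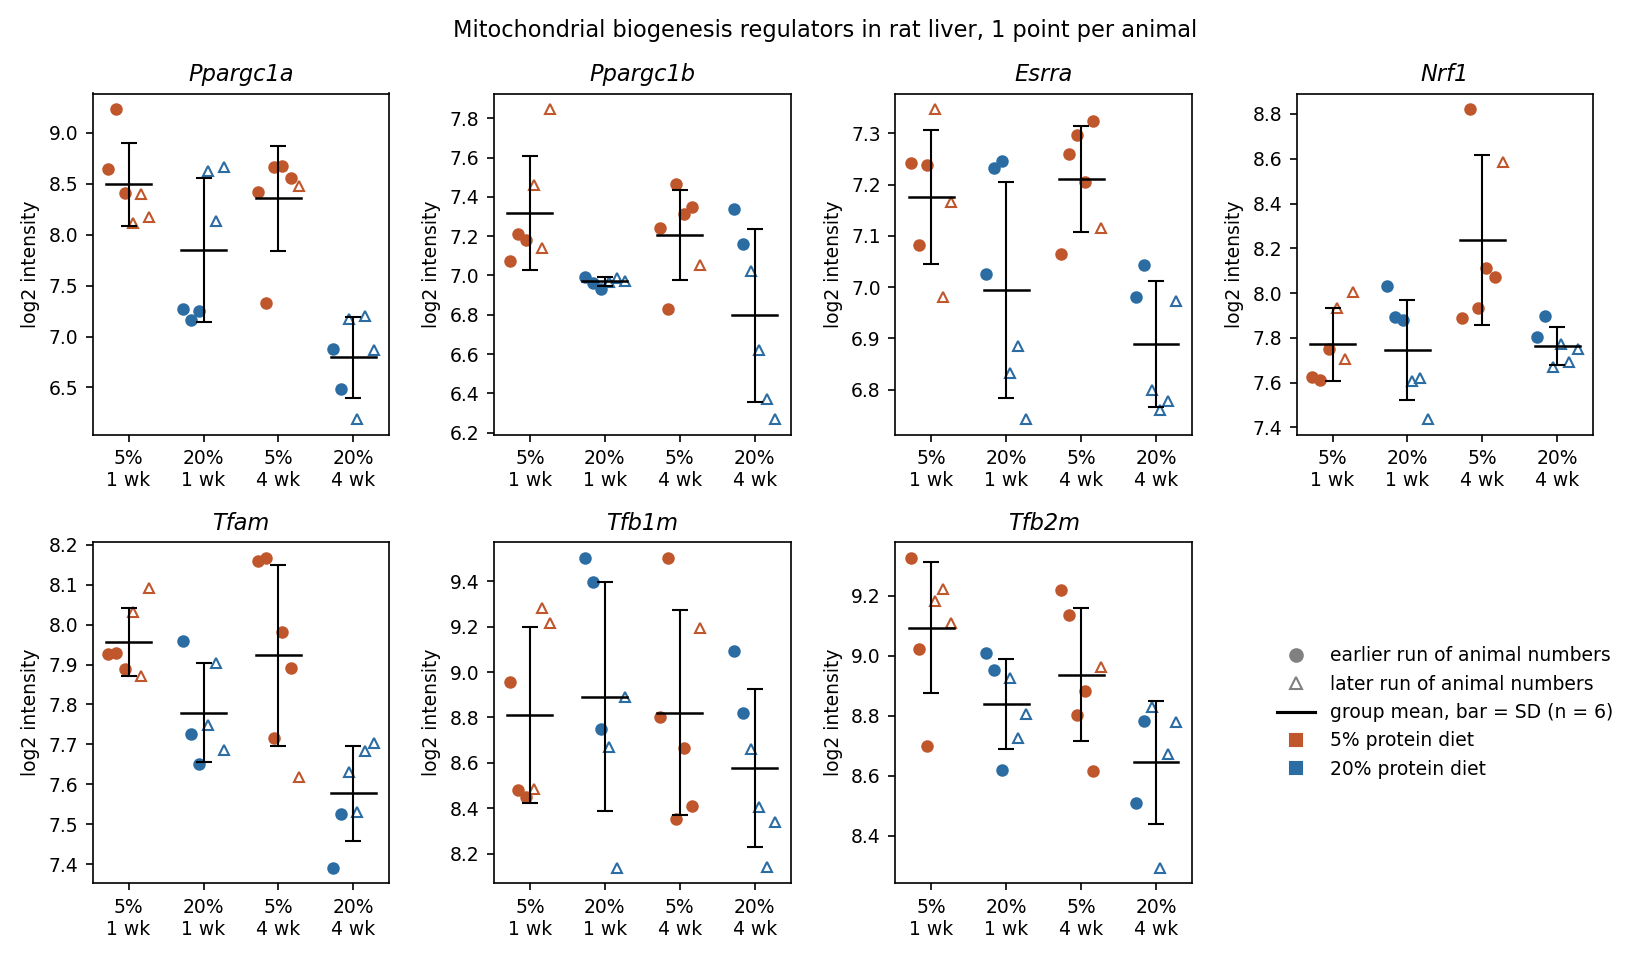
Log2 intensity of the 7 measured regulators in each of the 24 animals, in 1 panel per gene with the 4 diet and time groups along the x axis, 6 animals each, and the mean with SD beside the points. At 4 weeks every Ppargc1a and Esrra value on 5% protein lies above every value on 20% protein. The diets did not overlap for 12.4% of all genes then. At 1 week the Ppargc1a values on 20% protein lie in a lower and a higher set of 3.

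Ppargc1a, which encodes the inducible coactivator PGC-1α, showed the largest difference of the 7. Its intensity after 4 weeks was 343, 161, 406, 409, 377 and 357 in the 6 rats on 5% protein, and 117, 89.3, 144, 73, 148 and 116 in the 6 on 20% protein. The groups did not overlap, as was the case for 12.4% of all genes at 4 weeks, although rat 23 on 5% protein, at 161, lay close to the highest rat on 20%. The log2 difference was 1.56 ± 0.28 (SE; limma adjusted p = 0.000163; 95% confidence interval 0.98 to 2.13). Within the first run it was 1.65 ± 0.31 (limma adjusted p = 0.000853). In the third, rat 59 lay 1.62 above the mean of the 4 rats on 20% protein. The background within runs was 8.32% of genes called higher in the first and 6.83% in the third.

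After 1 week Ppargc1a intensity was 401, 601, 339, 278, 337 and 289 on 5% protein and 155, 143, 152, 394, 280 and 405 on 20% protein. The 5% protein rats of the second run, 339 to 601, lay just above those of the fourth, 278 to 337. Those on 20% fell into 3 low rats, all of the second run, and 3 high rats, all of the fourth. The pooled difference of 0.65 ± 0.28 was not called (limma adjusted p = 0.211; interval 0.07 to 1.22). In the second run alone it was 1.54 ± 0.30 (adjusted p = 0.00390), against a background of 2.86% of genes called higher. In the fourth run it was -0.24 ± 0.30 (adjusted p = 0.739), where 4.04% of genes were called higher. The diet effect of the fourth run minus that of the second was -1.78 ± 0.42 (limma adjusted p = 0.0134), and 7.29% of all genes were called in that comparison. Ppargc1a was the only one of the 7 regulators called there.

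**Figure D2:**
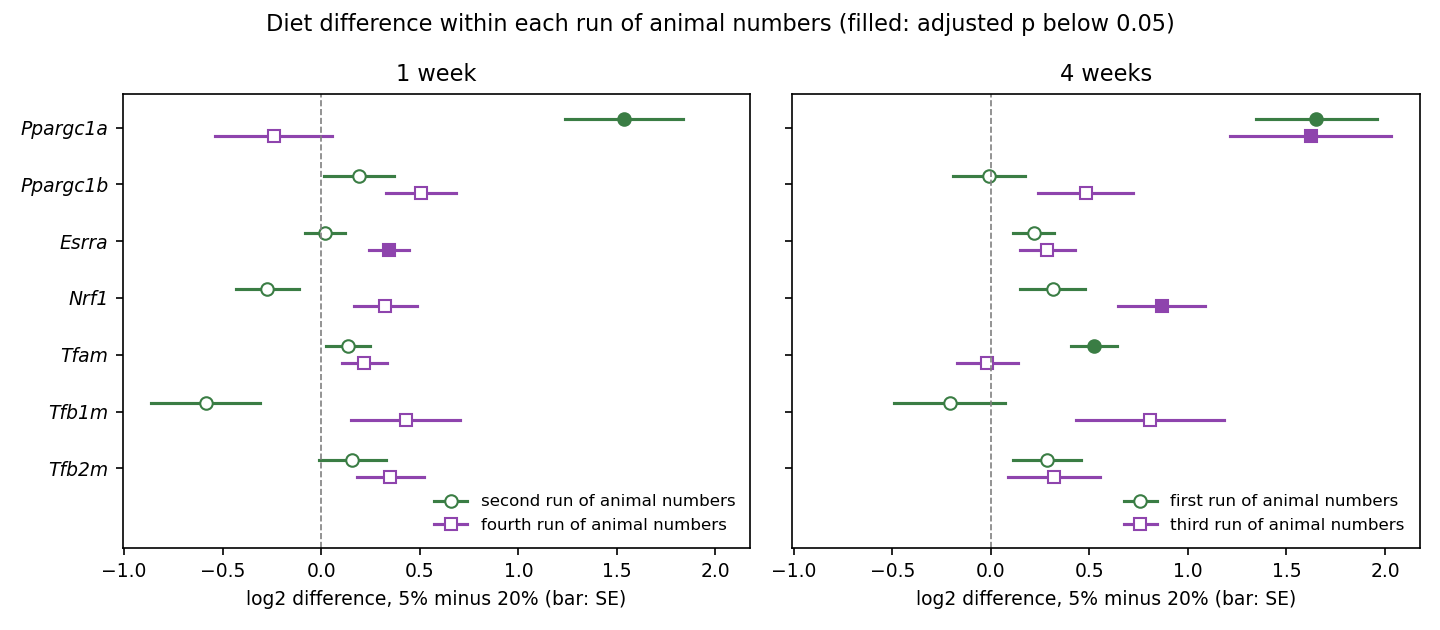
Diet difference in log2 intensity, 5% minus 20% protein, with its standard error, for each regulator within each of the 4 runs of animal numbers. Ppargc1a sits at 1.54 in the second run and at -0.24 in the fourth, both at 1 week, and at 1.65 and 1.62 in the 4 week runs.

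Among the 20% protein rats of 1 week, Ppargc1a was 1.25 ± 0.30 higher in the fourth than in the second run (limma adjusted p = 0.00939), and 4.3% of all genes were called higher in that comparison and 10.8% in either direction. Esrra was lower in the rats of the fourth run, with a log2 difference of -0.35 ± 0.10 (limma adjusted p = 0.0297), where 6.53% of all genes were called lower. The other 5 regulators were not called. Nuclear respiratory genes, which encode subunits of the respiratory chain and related mitochondrial proteins, were called higher in 16 and lower in 1 of 31 measured genes in the same comparison, with a median of 0.30. What separates the runs was not tested.

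Over the 4 groups the mean log2 level of Ppargc1a was 8.49 ± 0.41 (SD, n = 6) in 5% protein 1wk, 8.36 ± 0.51 in 5% protein 4wks, 7.85 ± 0.71 in 20% protein 1wk and 6.80 ± 0.40 in 20% protein 4wks. Of the steps in that order only the last, 1.05, was wider than the larger SD of its neighbours. On 20% protein the level was lower at 4 weeks than at 1 week by a log2 difference of -1.05 ± 0.28 (limma adjusted p = 0.0415), in a comparison with 1.5% of all genes called lower. The fit behind this call has no term for run. By run the mean was 7.23 and 8.47 at 1 week and 6.68 and 6.86 at 4 weeks. Leaving out 1 rat at a time kept this call in 5 of 12 fits: it was lost without rats 29, 30, 67 and 73 of 4 weeks and without 77, 78 and 79 of 1 week, with the difference between -1.07 and -0.89 and limma adjusted p up to 0.118. On 5% protein the time difference was not called, at -0.14. The difference between the diet effects at 4 and 1 weeks was 0.91 ± 0.39 and was not called (adjusted p = 0.179). None of the 7 regulators was called in that interaction, in which 5.75% of all genes were called. An unadjusted limma p below 0.05 was reached by 2 of the 7, Ppargc1a and Nrf1, and by 3620 of all 17245 genes.

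Ppargc1b encodes PGC-1β, the related coactivator that in liver is also known for lipogenic and lipoprotein genes. Its intensity was 135 to 230 (median 147) in 5% protein 1wk and 122 to 128 (median 125) in 20% protein 1wk. These groups did not overlap, as was the case for 2.56% of all genes at 1 week, yet the difference of 0.35 ± 0.16 was not called (limma adjusted p = 0.237). By run it was 0.19 in the second and 0.51 in the fourth, neither called. The 6 rats on 20% protein were close together, with an SD of 0.02 log2 units, against 0.29 on 5% protein. After 4 weeks the range was 114 to 177 (median 155) on 5% and 77.1 to 162 (median 114) on 20% protein, so the groups overlapped. The difference of 0.41 ± 0.16 missed the threshold (adjusted p = 0.0569; interval 0.09 to 0.73). It was -0.01 in the first run and 0.48 in the third.

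Esrra encodes ERRα, an orphan nuclear receptor through which PGC-1α acts on respiratory genes. Its intensity after 4 weeks was 134 to 160 (median 150) on 5% protein and 108 to 132 (median 118) on 20% protein. The groups did not overlap, as was the case for 12.4% of all genes at 4 weeks. The difference was small, 0.32 ± 0.09 (limma adjusted p = 0.00760; interval 0.14 to 0.50). Within the first run it was 0.22 and within the third 0.29, neither called. With the run of animal numbers as a covariate it was 0.24 and missed the threshold (adjusted p = 0.0571). After 1 week the range was 126 to 163 (median 147) on 5% and 107 to 152 (median 124) on 20% protein, and the pooled difference of 0.18 ± 0.09 was not called (adjusted p = 0.280). In the fourth run alone Esrra was called higher on 5% protein by 0.34 ± 0.10 (adjusted p = 0.0377), and in the second run the difference was 0.02.

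Nrf1 encodes NRF-1, a transcription factor of many nuclear respiratory genes and of Tfam. Its intensity was 196 to 257 (median 212) in 5% protein 1wk and 173 to 262 (median 216) in 20% protein 1wk. The groups covered much the same range, and the pooled difference was 0.03 ± 0.13 (limma adjusted p = 0.960; interval -0.25 to 0.30). By run it had opposite signs, -0.27 ± 0.16 in the second and 0.32 ± 0.16 in the fourth, neither called (adjusted p = 0.365 and 0.258). The difference between these run values, 0.60 ± 0.23, was not called either (limma adjusted p = 0.121, unadjusted p = 0.0158). After 4 weeks the values were 237, 453, 245, 277, 269 and 385 on 5% protein and 224, 239, 203, 218, 207 and 215 on 20% protein. The lowest rat on 5% protein lay just under the highest on 20%, and 2 rats on 5%, numbers 23 and 59, lay well above the rest. The difference was 0.47 ± 0.13 (adjusted p = 0.00908; interval 0.20 to 0.75).

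Within the first run the Nrf1 difference was 0.31 and was not called (limma adjusted p = 0.220), and in the third rat 59 alone lay 0.87 above the mean of the rats on 20% protein. Nrf1 was the only regulator called between the times on 5% protein, higher at 4 weeks by 0.47 ± 0.13 (adjusted p = 0.0301), where 4.15% of all genes were called higher. That call was lost without rats 23 and 59 of 4 weeks and without 49, 50, 54 and 75 of 1 week, at 0.35 to 0.46 (limma adjusted p up to 0.0754), and kept in the other 6 of 12 fits. Its level at 4 weeks on 20% protein, 7.76 ± 0.08, was close to its 1 week levels of 7.77 ± 0.16 and 7.75 ± 0.23.

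Tfam encodes the protein that packages mitochondrial DNA and takes part in starting its transcription. Its intensity after 4 weeks was 197 to 288 (median 245) on 5% protein and 168 to 208 (median 191) on 20% protein. The groups overlapped slightly, and the difference was 0.35 ± 0.09 (limma adjusted p = 0.00443; interval 0.16 to 0.53). The first run gave 0.53 ± 0.12 (adjusted p = 0.00353), and the third, with 1 rat on 5% protein, gave -0.02. After 1 week the range was 234 to 273 (median 244) on 5% and 201 to 249 (median 213) on 20% protein, and the difference of 0.18 ± 0.09 was not called (adjusted p = 0.297). By run it was 0.14 in the second and 0.22 in the fourth, neither called.

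Tfb2m encodes the mitochondrial transcription initiation factor that works beside TFAM. Its intensity was 416 to 642 (median 566) in 5% protein 1wk, 393 to 516 (median 467) in 20% protein 1wk, 392 to 596 (median 485) in 5% protein 4wks and 314 to 455 (median 423) in 20% protein 4wks. The diets overlapped at both times. The differences were alike in size, 0.25 ± 0.11 at 1 week (limma adjusted p = 0.236) and 0.29 ± 0.11 at 4 weeks (adjusted p = 0.0610; interval 0.06 to 0.53), and neither was called. By run they were 0.16 and 0.35 at 1 week and 0.28 and 0.32 at 4 weeks, none called.

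Tfb1m encodes a methyltransferase of mitochondrial ribosomal RNA. Its intensity was 350 to 622 (median 428) in 5% protein 1wk, 282 to 726 (median 453) in 20% protein 1wk, 327 to 724 (median 426) in 5% protein 4wks and 282 to 546 (median 372) in 20% protein 4wks. All 4 groups overlapped widely. The differences were -0.08 ± 0.23 at 1 week (limma adjusted p = 0.919; interval -0.55 to 0.39) and 0.24 ± 0.23 at 4 weeks (adjusted p = 0.494; interval -0.23 to 0.72). These intervals include differences as large as those called for Esrra and Tfam. The runs had opposite signs at both times. At 1 week the second gave -0.59 ± 0.27 (limma adjusted p = 0.220, unadjusted p = 0.0447) and the fourth 0.43 ± 0.27 (adjusted p = 0.424). At 4 weeks the first gave -0.21 ± 0.28 (limma adjusted p = 0.696), and in the third rat 59 alone lay 0.81 above the mean of the rats on 20% protein. Without rat 23 the 4 week difference was 0.11, and without rat 72 it was 0.16. At 1 week it ran from -0.23 to 0.04 without single rats.

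**Figure D3:**
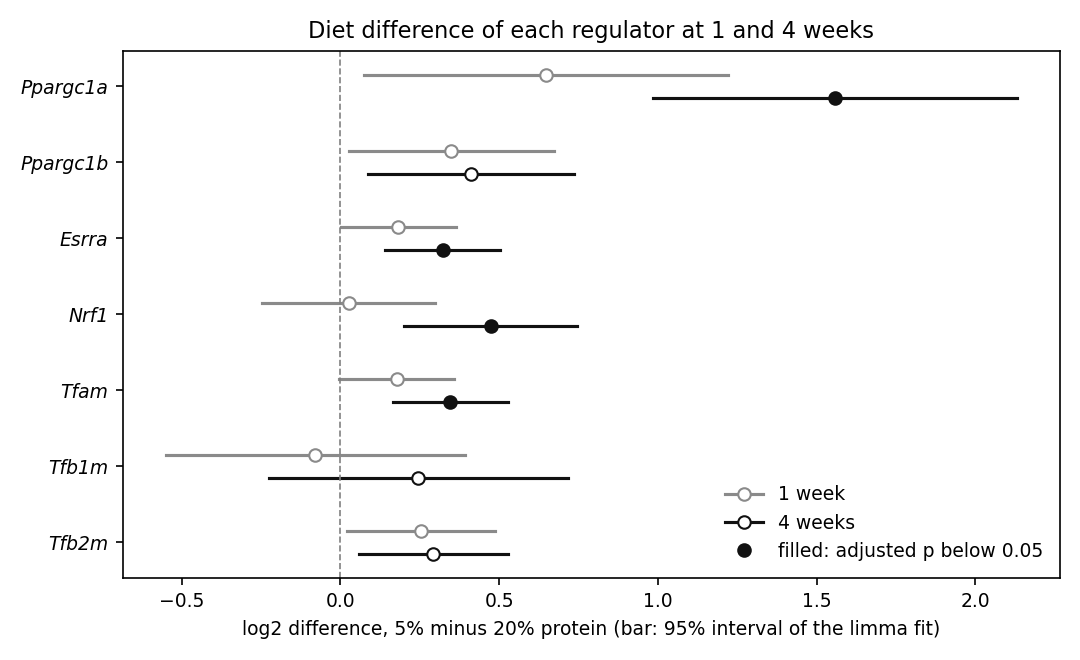
Diet difference in log2 intensity, 5% minus 20% protein, for the 7 regulators at 1 and 4 weeks, with 95% confidence intervals from the limma fit. Ppargc1a stands at 1.56 at 4 weeks, and Nrf1, Tfam and Esrra at 0.47, 0.35 and 0.32.

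The order of the group means differed between genes. Ppargc1a, Ppargc1b, Tfam and Tfb2m shared 1 order, with 5% protein 1wk highest, then 5% protein 4wks, 20% protein 1wk and 20% protein 4wks lowest. Esrra and Nrf1 were highest in 5% protein 4wks. Besides the Ppargc1a step, the only neighbouring means farther apart than the larger SD were those of Ppargc1b between 5% protein 4wks and 20% protein 1wk (0.24 against 0.23), of Tfam between the 20% groups (0.20 against 0.12) and of Nrf1 between the 5% groups (0.47 against 0.38). For Esrra, Tfb1m and Tfb2m no neighbouring groups were that far apart.

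Among rats of the same group the regulators did not vary as 1 block. With group means taken out, Ppargc1a and Nrf1 ran opposite to each other over the 24 rats (Pearson's r = -0.75, Spearman's rho = -0.75), although both were higher on 5% protein at 4 weeks. Rat 23, for example, had the lowest Ppargc1a (161) and the highest Nrf1 (453) of 5% protein 4wks. With run means also taken out r was again -0.75, and without the 2 rats farthest from the median of Ppargc1a, numbers 23 and 52, it was -0.64. Ppargc1a also ran opposite to Esrra (r = -0.56) and to Tfb1m (r = -0.51), and these were -0.24 and -0.28 with run means out. Nrf1 ran with Tfb1m (r = 0.61), Tfb1m with Tfb2m (r = 0.49) and Tfam with Tfb2m (r = 0.44). The rats share litter, array processing and normalisation to an extent the labels do not give, so these are descriptions of the 24 arrays.

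**Figure D4:**
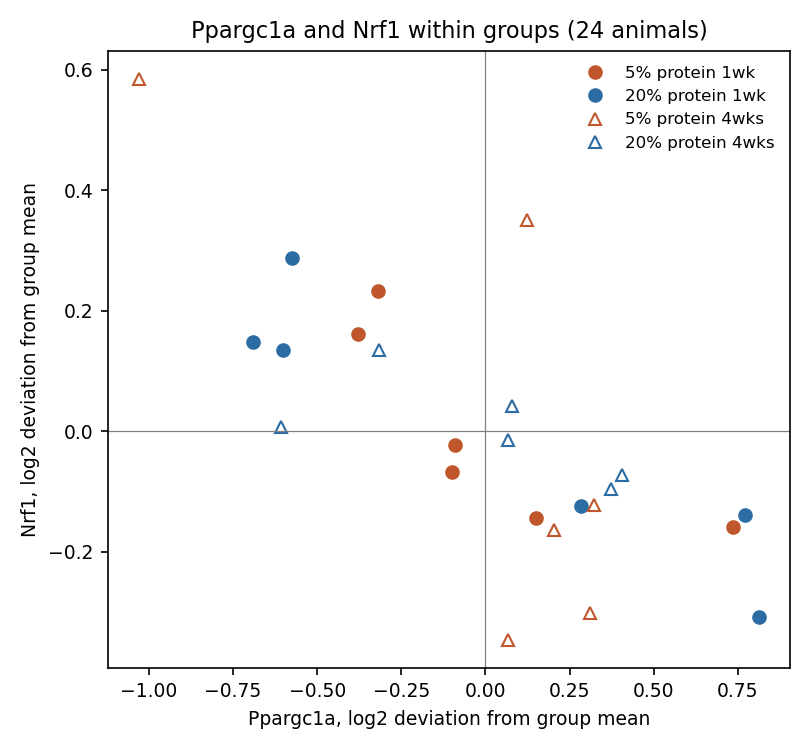
Ppargc1a against Nrf1 in each of the 24 rats, both as log2 deviation from the mean of the rat's own group. The points fall from upper left to lower right (r = -0.75), with rat 23 at the far upper left.

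The genes whose profile over the 24 rats lay nearest to each called regulator were named by the root mean square difference of centred log2 values. For Ppargc1a they were Cabcoco1 (0.400), Rhpn2 (0.416) and Tex36 (0.437), where the median of all genes was 0.853. For Esrra they were Hira (0.108), Khsrp (0.114) and Naca (0.119), against a median of 0.269. For Tfam they were Snrpb2 (0.102), Acap2 (0.142) and Usp19 (0.143), against 0.286. For Nrf1 they were Smchd1 (0.151), Tsnax (0.154) and Il18rap (0.158), against 0.350.

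The machinery that the regulators feed into was read from lists of related genes. Of 26 genes of mitochondrial transcription and RNA processing, all measured, 13 were higher and 2 lower on 5% protein at 4 weeks. The median was 0.31, and 13.4% of all genes were called higher and 12.4% lower. Fastkd1 and Fastk, of a family of mitochondrial RNA-binding proteins, were higher by 0.98 ± 0.11 (limma adjusted p = 3.41e-07) and 0.71 ± 0.13, and Rexo2, an oligoribonuclease, by 0.79 ± 0.12. Polrmt, the mitochondrial RNA polymerase that TFAM and TFB2M bring to its promoters, was higher by 0.32 ± 0.09 (limma adjusted p = 0.0144). The lower genes were Hsd17b10 (-0.42), a subunit of mitochondrial RNase P, and Slirp (-0.33), the binding partner of LRPPRC. The count of higher genes was 8 of 26 in the first run (median 0.24), where 8.32% of all genes were called higher. In the third, which rests on 1 rat on 5% protein, the median was 0.27. At 1 week Lrpprc, which stabilises mitochondrial messenger RNA, was the only gene of this list called in the pooled fit, higher by 0.37 ± 0.07 (limma adjusted p = 0.00210). In the second run 1 was called higher and 2 lower (median -0.13), against 2.86% and 4.71% of all genes. In the fourth 6 were called higher and 2 lower (median 0.18), against 4.04% and 4.45%.

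Of 21 measured genes of mitochondrial DNA replication and maintenance, 7 were higher and 3 lower at 4 weeks (median 0.16). With 13.4% of all genes called higher and 12.4% lower, the count of lower genes is near the background. The higher ones were led by the protease Lonp1, which degrades TFAM among other proteins (1.49 ± 0.16), the pyrimidine nucleotide carrier Slc25a33 (1.40 ± 0.16) and the repair endonuclease Apex1 (1.18 ± 0.20). The lower ones were Tymp (-1.18), Dna2 (-0.64) and Slc25a36 (-0.39), which act in thymidine breakdown, DNA end processing and pyrimidine nucleotide transport. At 1 week Slc25a33 was higher by 0.70 ± 0.16 (limma adjusted p = 0.0107) and Rrm2b, a ribonucleotide reductase subunit, was lower by a log2 difference of -0.58. In the first run at 4 weeks 6 genes of this list were called higher and 1 lower (median 0.17), against 8.32% and 7.54% of all genes. In the third, which rests on 1 rat on low protein, the median was 0.03.

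Of 31 measured nuclear respiratory genes, 6 were higher and 1 lower at 4 weeks, with a median of 0.11. With 13.4% of all genes called higher and 12.4% lower, the count of higher genes is little above the background. Idh3a of the citric acid cycle (0.75 ± 0.12), the import receptor Tomm20 (0.68 ± 0.11) and cytochrome c1, Cyc1 (0.44 ± 0.12), led the higher ones, and Cox6c, a cytochrome c oxidase subunit, was lower (-0.36). Cox6c was also the only gene of this list called at 1 week, lower (-0.32), when 2.44% of all genes were called lower. In the first run at 4 weeks 8 were called higher and 0 lower (median 0.18), against 8.32% and 7.54% of all genes. In the third run, with 1 rat on 5% protein, the median was 0.10. At 1 week 5 of 31 were called higher and 0 lower in the second run (median 0.17). Over all genes 2.86% were called higher and 4.71% lower there. In the fourth run 2 were called higher and 5 lower (median -0.19), where 4.04% of all genes were called higher and 4.45% lower.

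Of 14 other measured nuclear transcription factors, 2 were higher and 3 lower at 4 weeks (median -0.08), where 13.4% of all genes were called higher and 12.4% lower, so the counts differ little from the background. Myc, which also drives nuclear genes of mitochondria, was higher by 2.23 ± 0.32 (limma adjusted p = 1.07e-05), and Gabpb2, a partner subunit of GABPα, by 0.33 ± 0.10. Esrrg, the ERRγ relative of Esrra, went the other way from Esrra, at -1.56 ± 0.28 (limma adjusted p = 0.000204). Rxra (-0.48) and Creb1 (-0.33), which encodes the factor that binds cAMP response elements, were also lower. Ppara, the fatty acid sensor, was not called at either time (-0.06 and 0.05), and Gabpb1 was not measured on the rule above. At 1 week the thyroid hormone receptor gene Thrb was the only one of the 14 called, higher by 0.40 ± 0.10.

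Of 28 measured coactivators, corepressors and modifying enzymes, 5 were higher and 3 lower at 4 weeks (median 0.06), also close to the 13.4% and 12.4% over all genes. Pprc1, the third member of the PGC-1 family, was higher by 0.80 ± 0.26 (limma adjusted p = 0.0271), the methyltransferase gene Prmt1 by 0.66 ± 0.14 and Smarcd1, a chromatin remodelling subunit, by 0.62 ± 0.08 (adjusted p = 2.12e-06). Prkab1, a regulatory subunit of AMP-activated kinase, was lower (-0.82), as were Tfeb (-0.25) and Ncoa3 (-0.21). At 1 week the deacetylase gene Sirt3 was higher by 0.91 ± 0.19 (limma adjusted p = 0.00560) and Prkab1 lower (-0.44). Pprc1 split by run in the opposite direction to Ppargc1a at 1 week, with a diet difference of -0.72 ± 0.22 among the second run's rats (limma adjusted p = 0.0460) and of 1.30 ± 0.22 among the fourth run's (adjusted p = 0.000881). The fourth run's value minus the second's was 2.02 ± 0.31 (limma adjusted p = 0.000827).

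Of 12 measured liver genes known to respond to PGC-1α, 1 was higher and 3 lower at 4 weeks. Their median was -0.20, and 13.4% of all genes were called higher and 12.4% lower. Of the 12, the higher one was the hormone gene Fgf21 (3.66 ± 0.54, limma adjusted p = 1.61e-05). It was also the only one called at 1 week (2.21 ± 0.54, limma adjusted p = 0.0187). The lower ones were Acadm (-0.47) of fatty acid oxidation, Sod2 (-0.34), the mitochondrial superoxide dismutase, and Fbp1 (-0.32) of gluconeogenesis. By run the 4 week medians of the 12 had opposite signs. In the first run 3 were called higher and 0 lower (median 0.20), against 8.32% and 7.54% of all genes. In the third, which rests on 1 rat on low protein, the median was -0.38. The pooled negative median therefore did not hold within the first run. Pck1, the gluconeogenic enzyme gene often used to read PGC-1α activity, was not called in the pooled fit at 1 or 4 weeks (0.14 ± 0.40 and -0.59 ± 0.40), nor was Pdk4 (limma adjusted p = 0.323 and 0.0998). The mean log2 level of Pck1 at 1 week was 12.43 on 5% and 11.43 on 20% protein in the second run. In the fourth it was 11.71 and 12.42. At 4 weeks it was 11.83 and 11.40 in the first run. In the third it was 10.90, from 1 rat, and 12.69. Among the 24 rats, with group means out, r with Ppargc1a was 0.67 for Pck1 and 0.39 for Pdk4, and with run means also out it was 0.66 and 0.10. Both genes were chosen after their values were seen.

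**Figure D5:**
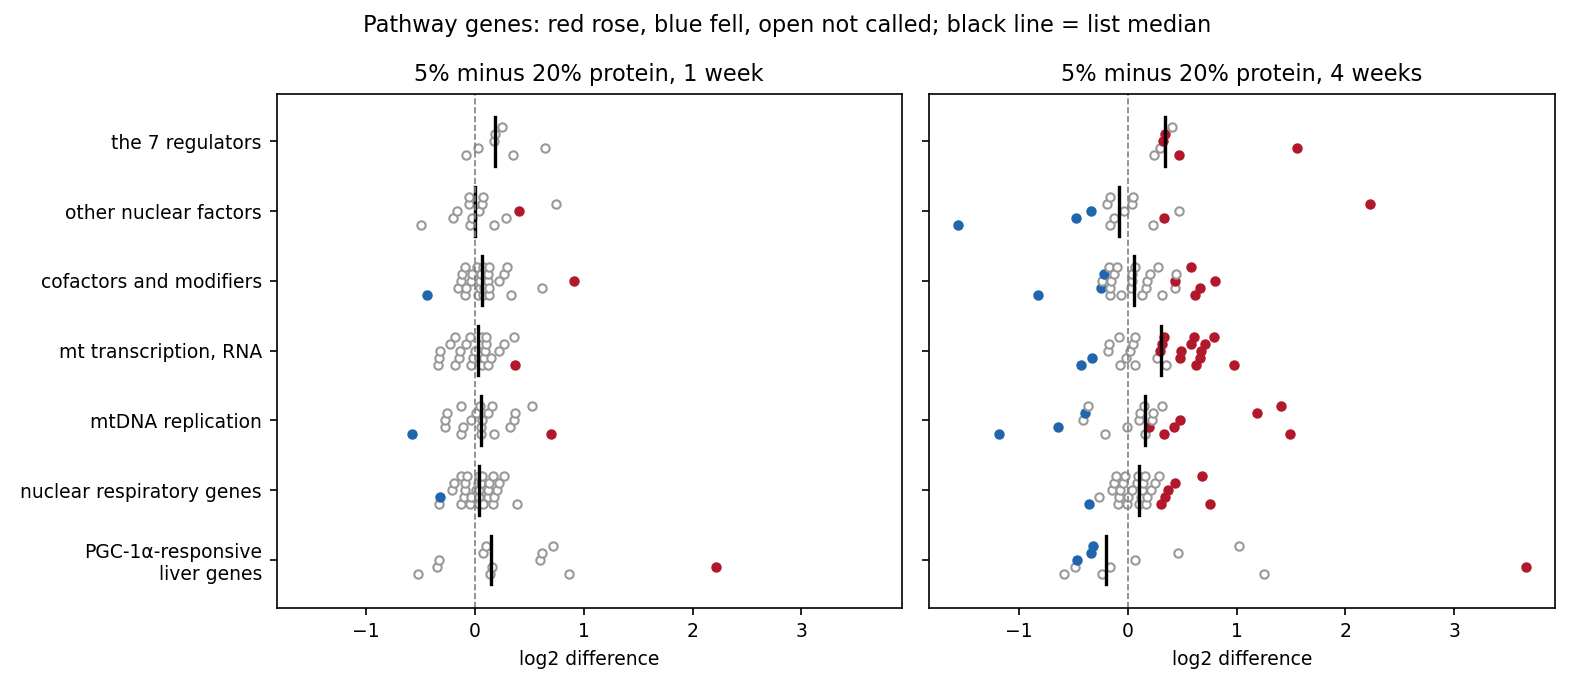
Diet differences in log2 intensity at 1 and 4 weeks of every measured gene in the 6 lists of related genes and of the 7 regulators, with the median of each list marked and called genes set apart. The median of mitochondrial transcription and RNA processing stands at 0.31 at 4 weeks, and that of the PGC-1α-responsive liver genes at -0.20. Both are pooled over the runs. The median of the PGC-1α-responsive liver genes at 4 weeks was 0.20 in the first run and -0.38 in the third.

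Markers of other liver cells moved in the same 4 week comparison. There 13.4% of all genes were called higher and 12.4% lower. Of 8 Kupffer cell markers 6 were lower on 5% protein (median -0.50), and their summed intensity was 2719 to 3470 on 5% and 3977 to 6863 on 20% protein. Of 8 measured hepatocyte markers 5 were lower (median -0.20; summed 55057 to 66459 against 66149 to 75710), as were 4 of 7 stellate cell markers (median -0.36) and 2 of 5 erythroid markers, and 3 of 5 cholangiocyte markers were higher (median 0.43). At 1 week, when 2.44% of all genes were called lower, 3 of 5 erythroid markers were lower (median -1.41). Their summed intensity was 1413 to 6430 on 5% and 5218 to 11540 on 20% protein. Of the remaining lists at 4 weeks, 1 of 5 lymphocyte markers was lower, and 1 of 6 adipocyte markers was higher and 1 lower. These single calls differ little from the background. None of 3 sinusoidal endothelial or 6 striated muscle markers was called. At 1 week 1 stellate cell marker was lower, and no marker of the other lists was called. The part of these cells in the regulators' differences was not tested.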

How the data were processed

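Total RNA of 24 livers was labelled with a sense target labelling kit and hybridised to Affymetrix arrays, per the labels. The authors deposited one table of probe set intensities on an unlogged scale, made with RMA, per the labels and the submitters' processing notes. No version was given. RMA as usually run corrects background, quantile-normalises arrays and summarises probes, so differences are relative to the bulk of genes. Deposited intensities ran from 3.27 to 15793.

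Of 29214 probe sets, 18644 carried a single gene symbol, 962 carried several and 9608 carried none. The probe set with the highest mean log2 value stood for each of 17245 genes, 879 of which had more than 1. Of these, 17108 matched the RefSeq gene table (GRCr8) by Entrez ID and 0 differed in symbol. Log2 intensities were fitted with limma 3.58.1 (lmFit, eBayes) in R 4.3.3, with 1 mean per group over all 24 arrays (20 residual and 3.95 prior degrees of freedom), two-sided, called below an adjusted p of 0.05. No filter on low values was applied, so all 7 measured regulators were tested. The test was checked on simulated data. The number of arrays limits the precision.

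Named genes were the 8 listed members, whatever their values. From each related list they were the called genes with the largest differences, up to 3 per direction, and Polrmt, Gabpb1, Esrrg, Pprc1 and Ppara. Pck1 and Pdk4 were named after their values were seen. Nearest profiles were the 3 genes closest to each called member. Members and lists were chosen with earlier results of these data known. Run of animal numbers, well row, scaling, offset, filter, array weights and single animals were varied as alternatives.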

Additional observations from a re-analysis of the deposited data

Results flagged for a closer look

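Ppargc1a in 5% protein 4wks held 1 rat, number 23, apart from the other 5. Its intensity was 161 against 343 to 409, and its gap to the next rat was 0.811 of the group's range on the log2 scale, above Dixon's 95% critical value for 6 samples. In all 28 sets of 6 rats (7 regulators in 4 groups) were looked at in this way, and chance flags about 1 in 20. The same rat had the highest Nrf1 of its group.

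The diet difference of Ppargc1a at 1 week differed between the runs of animal numbers, by -1.78 on the log2 scale (the fourth run minus the second, limma adjusted p = 0.0134). In all 3 rats on 20% protein of the second run the level was below, and in those of the fourth run within or above, the range of their run's rats on 5% protein.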

How the results depend on the processing

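No paired analysis was possible because no animal number occurs in more than 1 group. In the 4 week comparison Ppargc1a lay between 1.43 and 1.76 over all settings and single animals left out and stayed called, as did Nrf1 and Tfam outside single runs. Esrra was not called with the run as a covariate or in single runs at 4 weeks, and all 4 were called in 12 of 12 fits without 1 rat. Ppargc1b was called at 4 weeks with median centring (adjusted p = 0.0409), without the dimmest 33.3% of genes (0.0434) and with array weights (0.00618), and Tfb2m with the last 2 (0.0478 and 0.0389).

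Regulators called higher numbered 1 in the second and 1 in the fourth run at 1 week (0 pooled), and 2 in each of the first and the third run at 4 weeks (4 pooled), and leaving out single rats gave 4 to 6 at 4 weeks. The single call between times was lost (0) on 20% protein with quantile normalisation, an offset of 16, only the compared groups or the well row as a block, and on 5% protein with only the compared groups. Leaving out single rats gave 0 to 1 for both.

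Signs turned for values near 0 or within runs. At 1 week these were Nrf1 in the second run (-0.27), and Ppargc1a (-0.24) and Tfb1m (0.43) in the fourth. At 4 weeks they were Ppargc1b (-0.010) and Tfb1m (-0.21) in the first run and Tfam in the third (-0.017). In the diet by time term Ppargc1b turned with quantile normalisation (-0.0086) and the run covariate (-0.18), and Tfb2m with quantile normalisation (-0.031) and array weights (-0.0078). Over time on 5% protein Tfb1m turned with quantile normalisation (-0.020) and array weights (-0.070). Without single rats the ranges spanning 0 were, over time on 5% protein, Esrra -0.0041 to 0.069, Ppargc1a -0.22 to 0.066, Tfam -0.083 to 0.027 and Tfb1m -0.13 to 0.10. At 1 week they were Nrf1 -0.036 to 0.083 and Tfb1m -0.23 to 0.043. Over time on 20% protein Nrf1 spanned -0.044 to 0.076, and in the diet by time term Ppargc1b spanned -0.045 to 0.17 and Tfb2m -0.040 to 0.10. The cause was not tested. Of the other alternatives, excluding single animals, 399 regulator differences kept sign and call, 7 became called and 9 lost their call.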
